A study of Homo sapiens with 6 samples.

Results

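The genes examined here carry iron into the cell, store it, export it and sense it. They are TFRC, STEAP3 and SLC11A2 for uptake, FTH1, FTL and NCOA4 for storage and release from the store, SLC40A1 for export, and ACO1, IREB2 and FBXL5 for the iron sensor. They were chosen by name, and a spot on the array belonged to a gene when its gene name equalled one of these 10 symbols. That gave 10 of the 36337 gene names on the array, with 18 probes. All 18 probes passed the detection filter, a background p under 0.05 on all 6 arrays, and were well above background by the scanner's flag on all of them, and none of their spot values was flagged as an outlier.

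The arrays held RNA from BxPC-3 xenografts. BxPC-3 is a cell line from a human pancreatic adenocarcinoma, and its cells had been injected subcutaneously into the backs of female BALB/c nu/nu mice, which lack a thymus and were young adults when the experiment began. The 3 DFX tumors came from mice given 200 mg/kg of Deferasirox (DFX), an oral iron chelator, in saline by gavage on alternate days, 3 times a week, for 21 days, and the 3 control tumors came from mice given the vehicle alone for 21 days. Treatment began once the tumors had reached a set volume. Each tumor was hybridized to 1 one-color human array of 60-base probes, so that RNA of host cells could contribute where a mouse transcript binds a human probe. All 6 arrays lay on slide 1, with the control tumors in row 1 and the DFX tumors in row 2, so the row and the treatment cannot be told apart. Between 50.3% and 56.5% of the probes on each array were well above background. All 10 ductal epithelial marker genes, among them EPCAM, KRT8 and KRT18, were well above background on all arrays. Of these 10 genes, 8 were higher in the DFX tumors by their brightest probe, 3 (EPCAM, KRT8 and KRT18) had a probe with an unadjusted limma p under 0.05, and the median log2 fold change was 0.23 (0.12 with arrays scaled to their median). In whole tumors, fewer cells of a type and less RNA per cell cannot be told apart.

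Cells take up iron bound to transferrin through the transferrin receptor, which TFRC encodes, and ferritin, a shell built of FTH1 and FTL subunits, stores what is not used. Messenger RNAs of this system carry iron-responsive elements, which are bound by the iron regulatory proteins IRP1 (ACO1) and IRP2 (IREB2) when iron is scarce. Binding protects the TFRC message from decay and blocks translation of the ferritin and ferroportin messages, so that the response of ferritin to iron lies largely in protein synthesis and that of TFRC in the level of its message.

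In the DFX tumors the TFRC signal was 0.41 lower on the log2 scale than in the control tumors, with all 3 DFX tumors below all 3 control tumors, at an unadjusted but not at an adjusted threshold. The other 9 genes had no probe past an unadjusted p under 0.05 in limma, the threshold meant by "called" from here on. Among the 18 probes, 8 had a lower mean and 10 a higher mean in the DFX tumors. The 1 called probe compares with 8.41% of all 31807 tested probes called in either direction and 4.95% called as lower in the DFX tumors. Counted by gene, 1 of the 10 genes had a called probe, against 10.6% of all tested gene names. With limma p-values adjusted by Benjamini-Hochberg over the whole array, 0% of the probes were called, 0 of 31807, against 2675 at an unadjusted p under 0.05. The unmoderated linear model and the Kruskal-Wallis H test gave 2631 and 4927 unadjusted calls and 0 adjusted calls each. For the 18 probes limma gave adjusted p-values from 0.553 to 0.988.

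The differences were small. The median size of the log2 fold change was 0.083 for the 18 probes and 0.16 for all tested probes. The signed median was 0.043 for the 18 probes and -0.025 for all tested probes. By the brightest probe of each gene, 5 genes were lower and 5 higher, with a median of 0.024, which was -0.092 with arrays scaled to their median and 0.011 relative to the shift of all probes under that scaling. The median standard deviation (SD) within a group was 0.12 for the 18 probes and 0.22 for all tested probes. The groups did not overlap for 3 of the 18 probes, those of TFRC and a pair of FTH1 probes, against 15.5% of all tested probes.

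**Figure D1:**
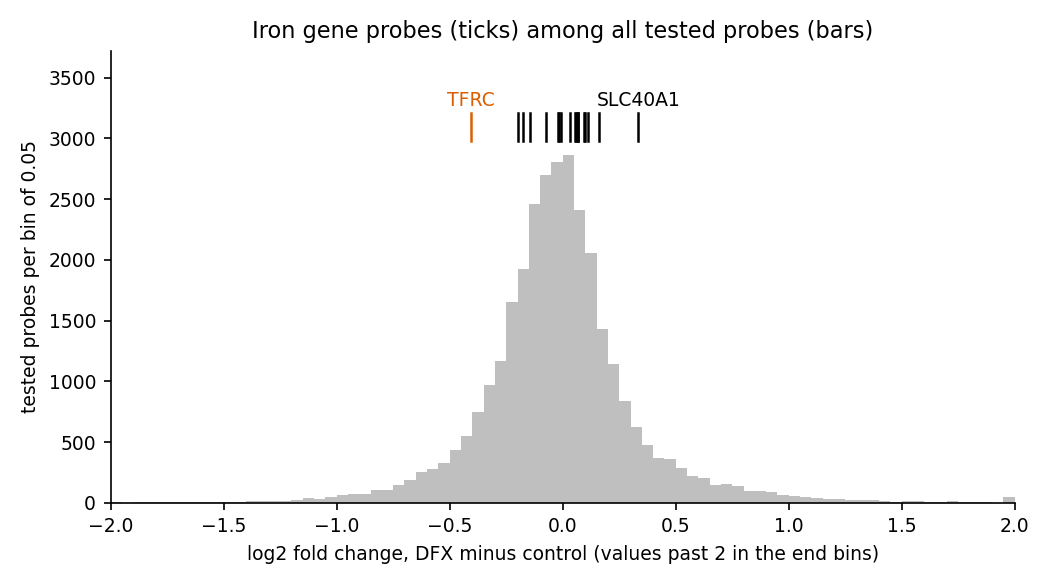
Log2 fold changes of the 18 iron gene probes (ticks at the top) over a histogram of all 31807 tested probes in bins of 0.05. The horizontal axis is the log2 fold change, DFX minus control, and the vertical axis counts probes. TFRC at -0.41 (orange) and SLC40A1 at 0.33 lie farthest out, and the other 16 ticks lie between -0.20 and 0.16.

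In the text below, a probe is named by its gene and by the base of the transcript at which it starts, as the array annotation gives it. Values are normalized log2 intensities, given for replicates 1, 2 and 3 of each group. They are compared only between tumors, because the brightness of a probe also depends on its own sequence.

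TFRC probe 4726 lies on chromosome 3 from 195776593 to 195776652 (hg19, minus strand) and was printed 10 times on each array. The beginning of the probe is shown to identify the only sequence that read the transferrin receptor message, and no letters are capitalised in it.
TFRC probe 4726, first 30 bases: acatttagcgtagctaagtgaaaaggtcat

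The control tumors had intensities of 11.94, 12.06 and 12.29, and the DFX tumors had 11.59, 11.70 and 11.78. All 3 DFX tumors lay below all 3 control tumors, with a gap of 0.15 between the groups. The means were 12.10 ± 0.18 (SD, n = 3) and 11.69 ± 0.10 (SD, n = 3), a log2 fold change of -0.41 with a standard error of 0.13. On the linear scale the signal decreased by 24.5%, with a 95% interval from -39.7% to -5.44%. The unadjusted p was 0.0223 and the adjusted p was 0.553 in limma with Benjamini-Hochberg adjustment. A difference of at least this size was found for 5449 of the tested probes, 17.1% of them. The call did not hold without control replicate 3 (-0.31, unadjusted p = 0.0506 in limma), without DFX replicate 1 (-0.35, unadjusted p = 0.0783), without DFX replicate 2 (-0.41, unadjusted p = 0.0530) or with the slide column as a block (-0.37, unadjusted p = 0.196). Within the slide columns that held both groups, the difference was -0.23 in column 2 and -0.51 in column 4. The block fit draws its difference from these columns alone and has few residual degrees of freedom.

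The 10 spots of TFRC show the spread within an array. Their SD there was 0.031 to 0.053, below the SD between tumors of the same group. The control tumors therefore differed from each other by more than the spots did, with control replicate 3 highest and control replicate 1 lowest.

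**Figure D2:**
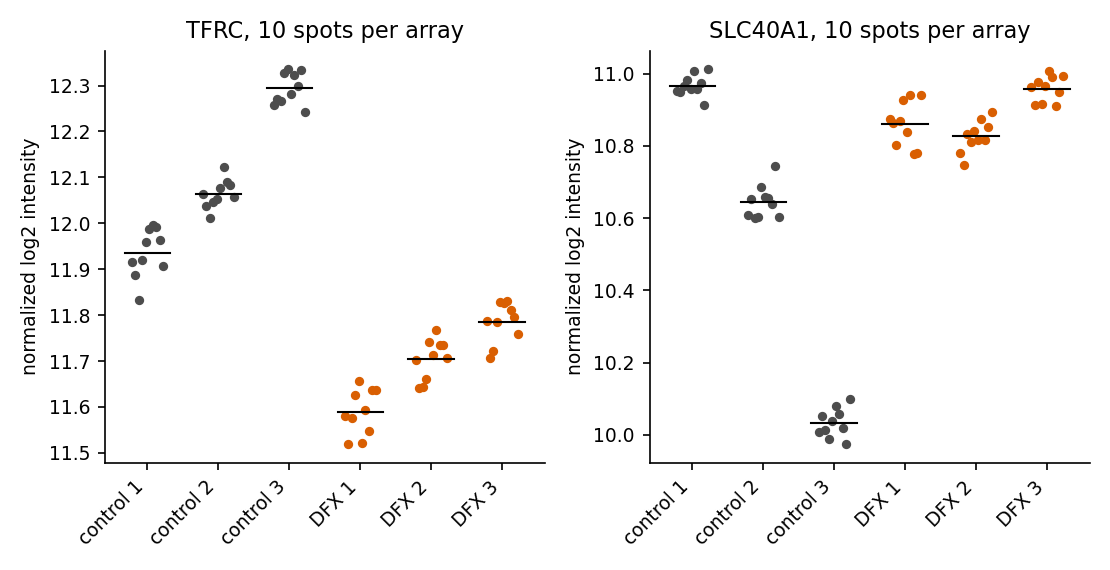
Normalized log2 intensity of each of the 10 spots (points) and their mean (line) in the 6 tumors, for TFRC on the left and SLC40A1 on the right, each with its own vertical axis. For TFRC the DFX means, 11.59 to 11.78, lie below the control means, 11.94 to 12.29, and for SLC40A1 control replicate 3 lies apart at 10.03.

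TFRC is abundant in erythroid precursors and in dividing cells, and markers of these cells were read beside it. Of 10 red blood cell genes, 6 had a tested probe. A called probe was found for 3 of these, all lower in the DFX tumors, against 10.6% of all tested gene names in either direction. HBA2, an alpha globin gene nearly identical to HBA1, was at 12.44, 12.67 and 12.27 in the control tumors against 10.47, 10.53 and 10.59 after DFX. Its log2 fold change was -1.93 (adjusted p = 0.0928 in limma). HBD, a delta globin gene, and SLC4A1, the red cell anion exchanger, had called probes at -1.12 and -0.56, while the brightest SLC4A1 probe was at 0.066. The summed linear intensity of the list was 6931 to 8174 in the control tumors and 3260 to 3463 in the DFX tumors. No array read AHSP or GATA1, which mark erythroid cells, well above background. The probes are human and the host is a mouse, so this does not show whether erythroid cells of the host were present. Of 8 proliferation genes, all tested, 1 had a called probe, against 10.6% of all tested gene names. This was an MKI67 probe at 0.35, while the brightest MKI67 probe was at 0.21 and not called. By their brightest probes 3 of the 8 genes were lower and 5 were higher, none of them called, with a median log2 fold change of 0.046. With arrays scaled to their median 5 were lower and 3 higher, with a median of -0.057. Relative to the shift of all probes under that scaling the median was 0.046. The summed intensity was 25685 to 36091 in the control tumors and 26746 to 33059 in the DFX tumors. The part of red blood cell RNA in the TFRC difference was not tested.

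The other uptake genes gave no called probe. STEAP3 is the endosomal reductase that converts transferrin-derived iron to the form that can leave the endosome. STEAP3 probe 4054 was at 11.37, 11.12 and 11.38 in the control tumors against 11.24, 11.22 and 11.35 after DFX, with a log2 fold change of -0.02 and a 95% interval from -0.31 to 0.27. STEAP3 probe 1628, a dim probe, was at 6.61, 7.24 and 7.29 against 7.07, 7.80 and 6.55, with an interval from -0.78 to 0.96. The DFX tumors covered a range of 1.25 in this dim probe, the widest within-group range of the 18 probes.

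SLC11A2 encodes DMT1, which carries ferrous iron across the endosomal membrane. SLC11A2 probe 1695 was at 9.43, 9.33 and 9.28 in the control tumors against 9.36, 9.60 and 9.57 after DFX, a log2 fold change of 0.16 with an interval from -0.12 to 0.44 (adjusted p = 0.723 in limma). DFX replicates 2 and 3 lay above all control tumors, while DFX replicate 1 lay among them. SLC11A2 probe 3580 was at 9.49, 9.25 and 9.26 against 9.23, 9.42 and 9.52, with 0.06 and an interval from -0.26 to 0.38. The 60 bases of probe 1695 span 2419 bases of chromosome 12 (51382184 to 51384602, hg19), so this probe crosses a splice junction.

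FTH1 encodes the heavy chain of ferritin, the subunit that oxidises iron as it enters the shell. Its 4 probes, all on chromosome 11, form 2 overlapping pairs, and the means of both probes were lower in the DFX tumors in the pair nearer the start of the transcript and higher in the other. The sequences are printed because the 4 probes do not read FTH1 equally. Probes 633 and 650 overlap by 43 bases, and the capitals mark the 2 bases of that overlap at which they differ, so both cannot match 1 transcript exactly.
FTH1 probe 633: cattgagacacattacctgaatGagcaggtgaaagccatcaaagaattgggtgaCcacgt
FTH1 probe 650: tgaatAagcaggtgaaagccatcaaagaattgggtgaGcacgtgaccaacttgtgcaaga
Probes 855 and 889 lie further along the transcript and overlap by 26 bases, again with 2 differing bases in capitals.
FTH1 probe 855, shared stretch: GacaCccacttaagttctttgatttg
FTH1 probe 889, shared stretch: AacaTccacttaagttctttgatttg

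FTH1 probe 633 (61732293 to 61732352, hg19, minus strand) was at 16.76, 16.58 and 16.69 in the control tumors against 16.43, 16.44 and 16.56 after DFX. FTH1 probe 650 (61732276 to 61732335) was at 16.48, 16.34 and 16.44 against 16.18, 16.23 and 16.32. In both probes all DFX tumors lay below all control tumors, though by a gap of only 0.02. The log2 fold changes were -0.20 (interval -0.46 to 0.06, unadjusted p = 0.109 in limma) and -0.17 (interval -0.42 to 0.07, unadjusted p = 0.137). Both passed under 3 of 21 alternatives. These were the unmoderated linear model (unadjusted p = 0.0418 and unadjusted p = 0.0386), limma's robust trend fit (unadjusted p = 0.0267 and unadjusted p = 0.0383) and the Kruskal-Wallis H test, whose approximate p passes whenever 3 and 3 tumors do not overlap, although an exact test of 3 against 3 cannot go below 0.1.

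FTH1 probe 855 (61732071 to 61732130) was at 17.20, 17.05 and 16.88 in the control tumors against 17.15, 17.10 and 17.08 after DFX. FTH1 probe 889 (61732038 to 61732096) was at 16.75, 16.56 and 16.42 against 16.66, 16.59 and 16.68. Here the DFX tumors lay within the range of the control tumors. Both had a log2 fold change of 0.07, with intervals from -0.22 to 0.36 and from -0.23 to 0.36.

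The difference between the pairs can be read within each array, where the scaling of the array cancels. The mean of probes 633 and 650 minus that of probes 855 and 889, set to a control mean of 0, was -0.09, -0.08 and 0.18 in the control tumors. It was -0.34, -0.25 and -0.18 in the DFX tumors. The shift was -0.26, and it was -0.27 on the log2 signal before normalization. This pairing of probes was chosen after their values were seen, so no test is given for it. The annotation lists a transcript of the pseudogene FTH1P3 beside FTH1 for probes 633 and 855, and FTH1 alone for probes 650 and 889. Which probe of a pair matches the FTH1 transcript exactly was not tested.

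**Figure D3:**
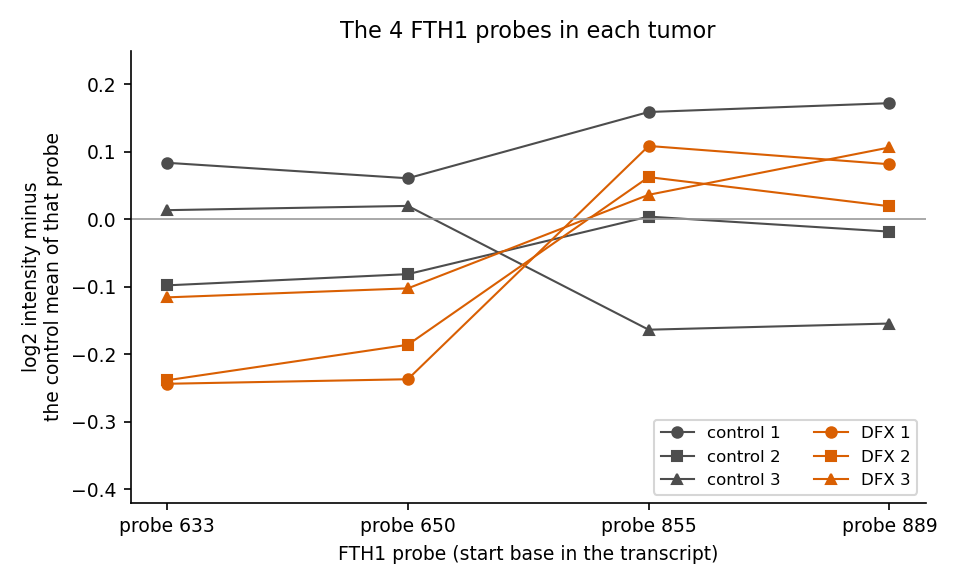
The 4 FTH1 probes (horizontal axis, in order along the transcript) in each tumor, as log2 intensity minus the control mean of that probe (vertical axis), with a line joining the values of a tumor. The DFX tumors (orange) lie at -0.24 to -0.10 for probes 633 and 650 and at 0.02 to 0.11 for probes 855 and 889, inside the spread of the control tumors (grey) at the latter.

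Among the other ferritin genes on the array, FTHL17, a ferritin heavy chain-like gene, was at 14.35, 14.33 and 14.34 in the control tumors against 13.75, 14.02 and 14.04 after DFX. Its log2 fold change was -0.40 (unadjusted p = 0.0149 in limma). Its probe shares no run of 20 or more bases with an FTH1 probe. It was not compared with the rest of the FTH1 transcript, so whether FTH1 RNA adds to its signal was not tested. FTMT, mitochondrial ferritin, and FTLP10, a light chain pseudogene, were dim, with log2 fold changes of -0.14 and -0.25 and no call.

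FTL encodes the light chain of ferritin, which helps the iron core form. Its 3 probes lie on chromosome 19 between 49468731 and 49469919 (hg19, plus strand). FTL probe 165 was at 13.91, 13.82 and 13.79 in the control tumors against 13.66, 13.80 and 13.62 after DFX, a log2 fold change of -0.14 (interval -0.40 to 0.11, adjusted p = 0.729 in limma). DFX replicates 1 and 3 lay below all control tumors and DFX replicate 2 just above the lowest of them. FTL probe 303 was at 14.37, 14.14 and 14.16 against 14.29, 14.27 and 14.07, with -0.02 (interval -0.32 to 0.29). FTL probe 594 was at 14.27, 13.95 and 14.20 against 14.19, 14.15 and 14.16, with 0.03 (interval -0.27 to 0.33). The groups overlapped in all 3 probes.

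NCOA4 encodes the receptor that delivers ferritin to lysosomes, where its iron is released. NCOA4 probe 951 was at 9.005, 8.90 and 8.80 in the control tumors against 9.17, 8.87 and 8.97 after DFX, a log2 fold change of 0.10 (interval -0.20 to 0.40). NCOA4 probe 3587 was at 15.05, 14.80 and 14.81 against 14.84, 14.72 and 14.88, with -0.07 (interval -0.37 to 0.22). The groups overlapped in both probes. Probe 3587 shares a run of 21 bases with an array probe named REREP3.

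SLC40A1 encodes ferroportin, the exporter of cellular iron. SLC40A1 probe 2861 (chromosome 2, 190425750 to 190425809, hg19, minus strand) was at 10.97, 10.65 and 10.03 in the control tumors against 10.86, 10.83 and 10.96 after DFX. The DFX tumors agreed within 0.13, whereas the control tumors spread over 0.94, the widest control range of the 18 probes. The log2 fold change was 0.33 (interval -0.26 to 0.93, adjusted p = 0.728 in limma), so that a decrease of 16.5% and an increase of 90.3% both lie within the interval. Without control replicate 3 it was 0.08, and without control replicate 1 it was 0.54 (unadjusted p = 0.05002 in limma, just above the threshold). Within slide column 2 it was -0.14 and within column 4 it was 0.93. The 10 spots of this probe had an SD of 0.029 to 0.062 within an array, so the low value of control replicate 3 was present in all of its spots, which lay between 9.97 and 10.10.

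Macrophages are rich in ferroportin and could enter a xenograft from the host. Of 10 macrophage genes, 6 had a tested probe and 0 had an unadjusted limma p under 0.05, against 10.6% of all tested gene names. No array read CSF1R, CD163 or MRC1 well above background. With human probes and a mouse host, signals at background do not show that host cells were absent. The summed intensity of the list was 1971 to 2321 in the control tumors and 2068 to 2422 in the DFX tumors. Of 10 fibroblast genes, 8 had a tested probe. The called ones were 2, DCN at -1.30 and LUM at 0.87, against 10.6% of all tested gene names. The summed intensity of the fibroblast list was 13761 to 22725 in the control tumors and 12706 to 15726 in the DFX tumors. For PDGFRB, POSTN and FBN1 no array was well above background either, while 6 of the fibroblast genes were so on all arrays. The part of host cells in the spread of SLC40A1 was not tested.

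The genes of the iron sensor had SDs within groups of 0.019 to 0.081 and no called probe. ACO1 encodes IRP1, which is a cytosolic aconitase when it holds an iron-sulfur cluster and binds RNA when it does not. ACO1 probe 3260 was at 9.92, 9.84 and 9.76 in the control tumors against 9.92, 9.89 and 10.04 after DFX, a log2 fold change of 0.11 (interval -0.14 to 0.37, adjusted p = 0.780 in limma). IREB2 encodes IRP2, which is degraded when iron is plentiful, and IREB2 probe 6075 was at 11.70, 11.72 and 11.69 against 11.71, 11.78 and 11.79, with 0.06 (interval -0.17 to 0.28, adjusted p = 0.881). The control tumors were closest to each other in IREB2, with the smallest control SD of the 18 probes. FBXL5 encodes the iron-sensing ubiquitin ligase subunit that marks IRP2 for degradation, and FBXL5 probe 2530 was at 11.66, 11.57 and 11.52 against 11.52, 11.61 and 11.60, with -0.01 (interval -0.25 to 0.24, adjusted p = 0.988). For these 3 genes the intervals bound any difference to less than 0.5 on the log2 scale in either direction, as they did for 15 of the 18 probes. The exceptions were TFRC, SLC40A1 and STEAP3 probe 1628.

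**Figure D4:**
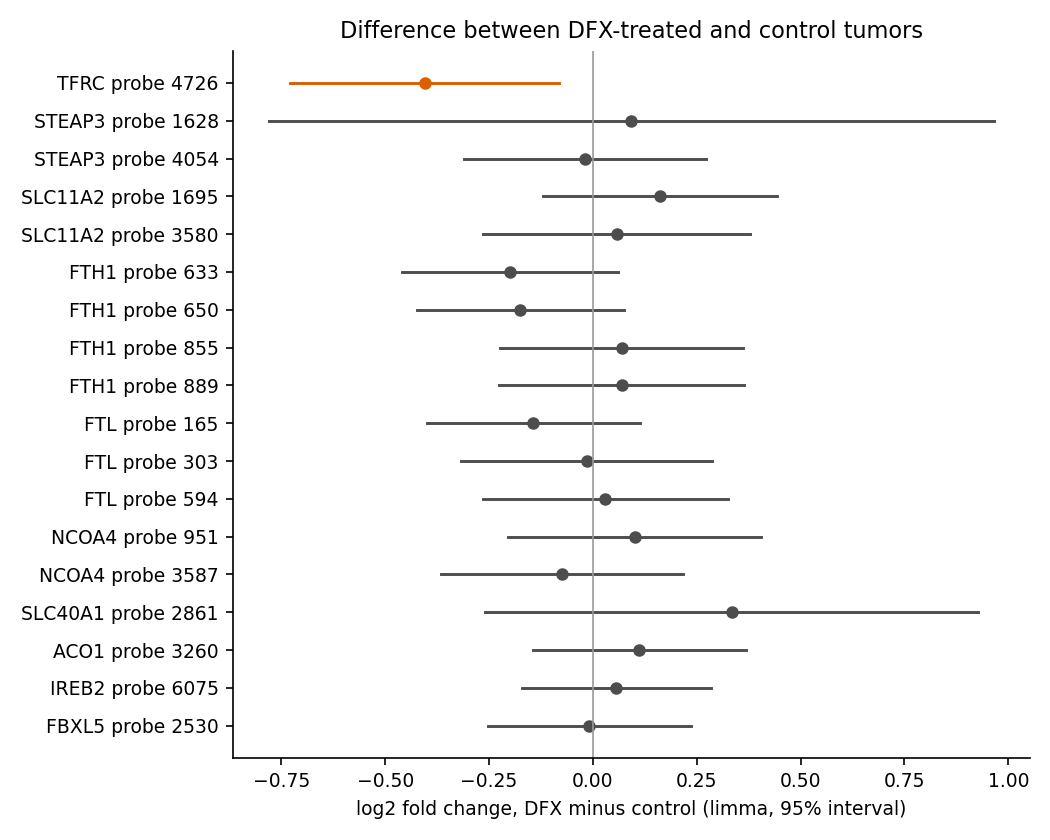
Log2 fold change, DFX minus control, of each of the 18 probes (points) with the 95% interval from limma (lines), 3 tumors per group. TFRC at -0.41 (orange) is the only probe whose interval excludes 0, and STEAP3 probe 1628 has the widest interval, from -0.78 to 0.96.

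The tumors also differed among themselves across these genes. Control replicate 1 had the highest intensity of its group in 14 of the 18 probes. Control replicate 3 had the lowest in 9 and the highest in 3, TFRC among the latter. In the DFX group, replicate 3 was highest in 10 probes. The SD was larger in the control than in the DFX tumors for 11 of the 18 probes.

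**Figure D5:**
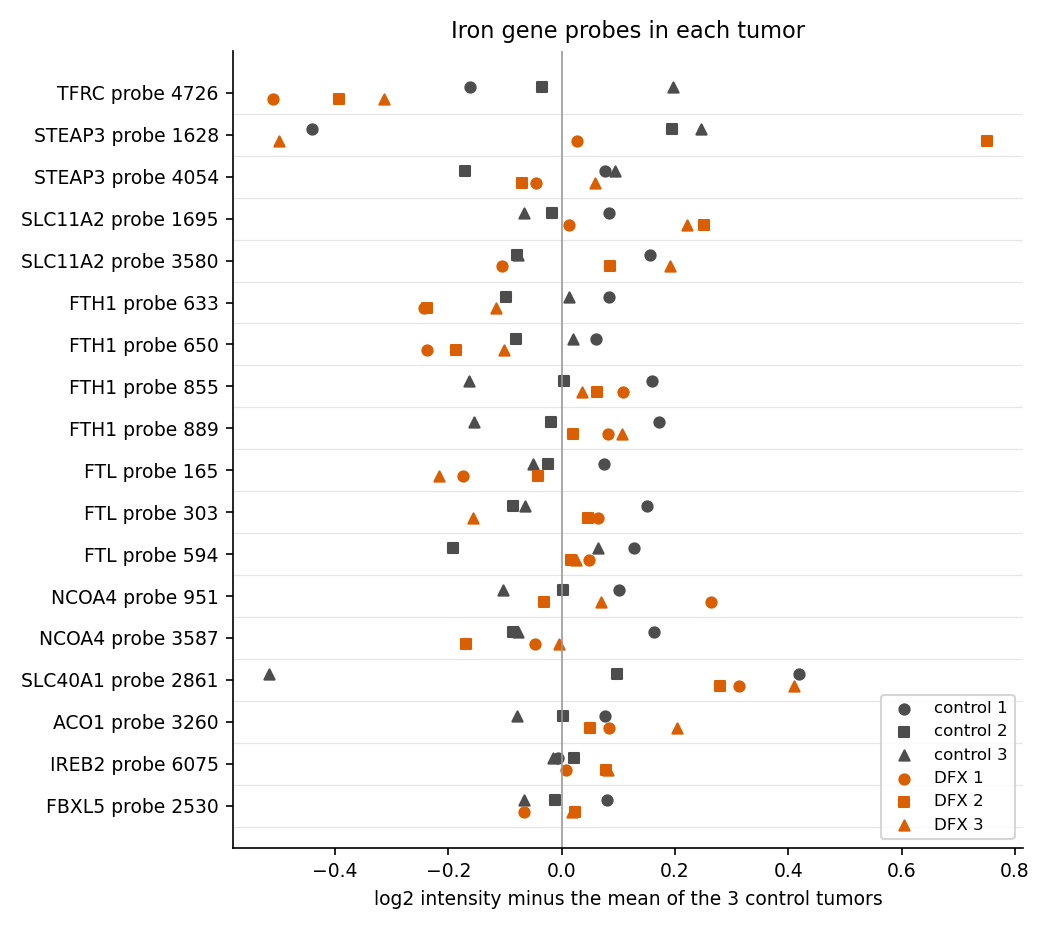
Each tumor's log2 intensity minus the mean of the 3 control tumors (horizontal axis) for the 18 probes (rows), with control tumors in grey, DFX tumors in orange and a marker shape for each replicate. In the rows of TFRC, FTH1 probe 633 and FTH1 probe 650 all orange points lie to the left of all grey points, and control replicate 1 lies highest of its group in 14 rows.

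Beyond these genes, 45 other genes of iron handling were read from a list that covers uptake and reduction, storage and chaperones, export, mitochondrial import, control of the IRPs, and other messages with an iron-responsive element. Of these, 42 had a tested probe, with a median log2 fold change of -0.048, 26 lower and 16 higher by their brightest probe. A called probe was found for 5 of the 42, against 10.6% of all tested gene names, 3 lower and 2 higher in the DFX tumors. LTF, PCBP3 and HAO1 were well above background on 0 arrays.

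HFE, which binds the transferrin receptor and competes with transferrin, was at 5.34, 5.32 and 5.42 in the control tumors against 4.77, 4.70 and 4.81 after DFX, a difference of -0.60 (standard error 0.098, unadjusted p = 0.000813, adjusted p = 0.504 in limma). This was the smallest unadjusted p among the 5. The probe was dim and well above background on 5 of the 6 arrays. CP, the ferroxidase ceruloplasmin that acts with ferroportin, was at 10.81, 11.07 and 10.16 against 11.27, 11.19 and 11.75, a difference of 0.72 (standard error 0.28, unadjusted p = 0.0396 in limma), and its brighter probe, also called, was at 0.70 with groups that overlapped. Control replicate 3 was the lowest tumor for CP, as it was for SLC40A1.

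For the other 3 genes the called probe was not the brightest of the gene. SLC39A8, a metal transporter that can carry iron, did not reach well above background in a DFX tumor by its called probe. The group means of that probe were 5.27 and 4.45, a difference of -0.82 (standard error 0.23, adjusted p = 0.514 in limma). Set against the background floor, the means differed by at least 1.72-fold, a bound that leaves out the spread between tumors. The brightest SLC39A8 probe was at 0.19. PCBP4, of the family of iron chaperones and RNA-binding proteins, was at -0.47 by its called probe and at -0.01 by its brightest. HERC2, a ubiquitin ligase linked to control of NCOA4 and FBXL5, had 1 called probe at 0.32 among 16 tested, and its brightest was at 0.09.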

How the data were processed

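RNA from 6 tumors was measured on one-color arrays, 1 tumor per array, and groups and replicate numbers were taken from the sample titles. The members and lists were chosen with earlier results of these data known. The authors deposited scanner intensity values on a linear scale, a p-value of each spot against its background, and flags, per the file headers from Feature Extraction 10.7.1.1 (the submitters' notes name 9.5.1.1). They also deposited a table of normalized intensity values, which matched 50599 probes and was used as an alternative.

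Here the processed, background-subtracted signal of 58717 non-control spots was log2-transformed and quantile-normalized, 1398 outlier spot values were left out, spots were averaged per probe, and probes with a median background p under 0.05 on all 6 arrays were tested, 31807 of 50599. The log2 values of the groups were tested by limma (version 3.58.1, R 4.3.3, functions lmFit and eBayes, prior degrees of freedom 2.04), and p-values were adjusted by Benjamini-Hochberg over the tested probes. An interval is the 95% interval of that fit. The threshold for a call is that of the methods, which name no test for the arrays.

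A probe was well above background by the scanner's flag. A summed intensity adds, for each listed gene with a tested probe, the linear signal of its brightest tested probe. All probes of the 10 genes are named. Of the other iron genes, ferritin genes and marker genes, those with a called probe are named, and otherwise only genes singled out for a background or dim signal. Of 5 hepatocyte genes, read as a check of tissue type, 2 were tested. Only SERPINA1 was called, at 0.50, against 10.6% of all tested gene names. Positions were copied from the array's own annotation (hg19). Where a probe lies in the exon structure was not analysed here. The number of arrays limits the precision, and p-values measure the spread between 3 tumors per group. The procedure was tested on simulated data. The alternatives covered scaling, background correction, signal column, filters, outlier flags, the authors' table, the test, array weights, replicate and slide column blocks, which probe stands for a gene, and leaving out each tumor.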

Additional observations from a re-analysis of the deposited data

How the results depend on the processing

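Of 378 values of the 18 probes under 21 alternatives, 344 kept their direction and their side of the threshold, 24 changed sign, 6 newly passed and 4 no longer passed, and the cause was not tested. TFRC kept its direction under all 21 (-0.52 to -0.31) and its unadjusted call under 17. After median scaling the whole array had a median difference of -0.10, and the values were -0.0279 for FTH1 probe 855, -0.0464 for FTH1 probe 889, -0.0957 for FTL probe 594, -0.0551 for IREB2 probe 6075 and -0.0475 for SLC11A2 probe 3580. Relative to that shift they were 0.08, 0.06, 0.01, 0.05 and 0.06. With array quality weights FTL probe 303 was at 0.0434, SLC11A2 probe 3580 at -0.00127 and STEAP3 probe 4054 at 0.0262. With the slide column as a block FBXL5 was at 0.0145 and FTL probe 594 at -0.0752. Leaving out 1 tumor gave -0.0417 to 0.0313 for FBXL5, -0.0123 to 0.149 for FTH1 probe 855, -0.00779 to 0.155 for FTH1 probe 889, -0.0576 to 0.0600 for FTL probe 303, -0.0659 to 0.0941 for FTL probe 594, -0.117 to 0.00757 for NCOA4 probe 3587, -0.0100 to 0.138 for SLC11A2 probe 3580, -0.236 to 0.389 for STEAP3 probe 1628 and -0.104 to 0.0277 for STEAP3 probe 4054.

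The count of iron genes with a called probe, 1, was 2 with the Kruskal-Wallis H test, the unmoderated model and the robust trend fit, each time through FTH1. It was 0 with the slide column as a block and 0 to 1 with 1 tumor left out, 0 being the count when control replicate 3, DFX replicate 1 or DFX replicate 2 was missing. The count of called probes, 2675, was 4927 with the Kruskal-Wallis H test, 4213 with array quality weights and 1418 with the slide column as a block, and 1889 to 2717 with 1 tumor left out. Calls were lower in the DFX tumors in 58.8% of cases, in 42.6% after scaling to the 75th percentile and in 71.8% after scaling to the median. At an adjusted p under 0.05, between 0 and 3 probes passed across the alternatives.

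Tumors that share a replicate number did not deviate together (correlations of 0.027, 0.027 and 0.016 over all tested probes). The sample titles give no pairing beyond the number. With the replicate block 2419 probes and 1 iron gene were called, and TFRC was at -0.41 (unadjusted p = 0.0272 in limma).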
